A study of Rattus norvegicus with 20 samples.

Results

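The CCN matricellular family was followed as the 5 probe sets whose single platform symbol was Ccn1 (formerly Cyr61), Ccn2 (Ctgf), Ccn3 (Nov), Ccn4 (Wisp1) or Ccn5 (Wisp2), out of 31042 probe sets tested. Each of the 5 genes had 1 probe set, the probes that together read 1 transcript, among 14217 genes measured. RNA of the right ventricle was measured on 20 Affymetrix arrays, 1 per tissue sample, from male Sprague Dawley rats of about 350 g. Chronic pulmonary embolism (PE) was modelled with polystyrene microspheres of 25 micron, given through the right jugular vein at 2000000 per 100 g of body weight and suspended in 0.01% Tween-20, while vehicle rats received 0.01% Tween-20 alone. Hearts were taken after 6 weeks, and the ventricle was cut into the outflow tract, at its base, and the apex. The groups were PE outflow tract, vehicle outflow tract, PE apex and vehicle apex, with 5 arrays each. A protocol field names vehicle treatment for all samples, and the groups follow the titles, which match the injection field. Microspheres obstruct lung vessels without the biology of a blood clot, which limits them as a model of thromboembolism. The labels call the replicates of a group biological, and numbers 1 to 5 recur in both regions of a treatment.

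CCN proteins are secreted into the extracellular matrix, where they act less as structural parts than as modulators of signals from integrins, proteoglycans and growth factors. They share a modular build with an insulin-like growth factor binding domain, a von Willebrand type C domain and a thrombospondin type 1 repeat, and all members followed here except Ccn5 end in a cystine knot domain. In the heart, Ccn2 (connective tissue growth factor) is known as a companion of fibrosis and a target of TGF-beta, and Ccn1 and Ccn2 are textbook targets of YAP and TAZ acting through TEAD factors. Ccn5 has been described as an opponent of Ccn2 in the mouse heart, Ccn3 as a restrainer of smooth muscle growth, and Ccn4 as a target of Wnt signalling.

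On the deposited linear signal scale, the arrays had medians of 123.06 to 159.45 and a trimmed mean between 500.18 and 500.21, so the authors had scaled them to a common level. The 3' to 5' ratio of the GAPDH control probe sets, high where the labelled material is short, was 1.71, 6.12, 1.70, 2.20 and 2.34 on PE outflow arrays 1 to 5, against 1.38 to 1.66 on vehicle outflow arrays. It was 1.47 to 1.67 on PE apex arrays and 1.44 to 1.83 on vehicle apex arrays. The main values of the CCN genes that rose and the list counts are also given without PE outflow arrays 2, 4 and 5, which leaves 2 arrays in that group, while ranks, single pathway genes and profile neighbours are given with all arrays only. The tissue is bulk, so fewer cells of a type and less RNA per cell cannot be told apart. Cardiomyocyte markers were bright in every group, with a summed signal of 164135 or more on every array.

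In the outflow tract, Ccn2, Ccn3 and Ccn5 rose after PE, while Ccn1 and Ccn4 did not pass the test. Called here means an adjusted p under 0.05 in limma, a linear model of the 4 groups on log2(signal + 16), with Benjamini-Hochberg adjustment over the 31042 probe sets. By that rule 3 of 5 CCN probe sets rose and 0 fell, where 19.6% of all probe sets were called higher and 34.5% were called in either direction. Without PE outflow replicates 2, 4 and 5, Ccn1 was called as well, which made 4 of 5, where 12.7% of all probe sets were then called higher and 23.5% in either direction. The PE outflow arrays left there were replicates 1 and 3, with Ccn1 signals of 815 and 123. With replicate 1 alone left out, the Ccn1 log2 difference was 0.41 and not called. For Ccn2, Ccn3 and Ccn5 every PE array exceeded every vehicle array, as was the case for 13.4% of all probe sets. When probe sets were ordered from the highest log2 difference down, Ccn5 stood at rank 1, Ccn3 at rank 17 and Ccn2 at rank 41, while Ccn1 stood at rank 2688 and Ccn4 at rank 8494. Fold changes below are those of the signal plus 16, and errors of log2 differences are standard errors (SE) of the model with 5 arrays per group.

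**Figure D1:**
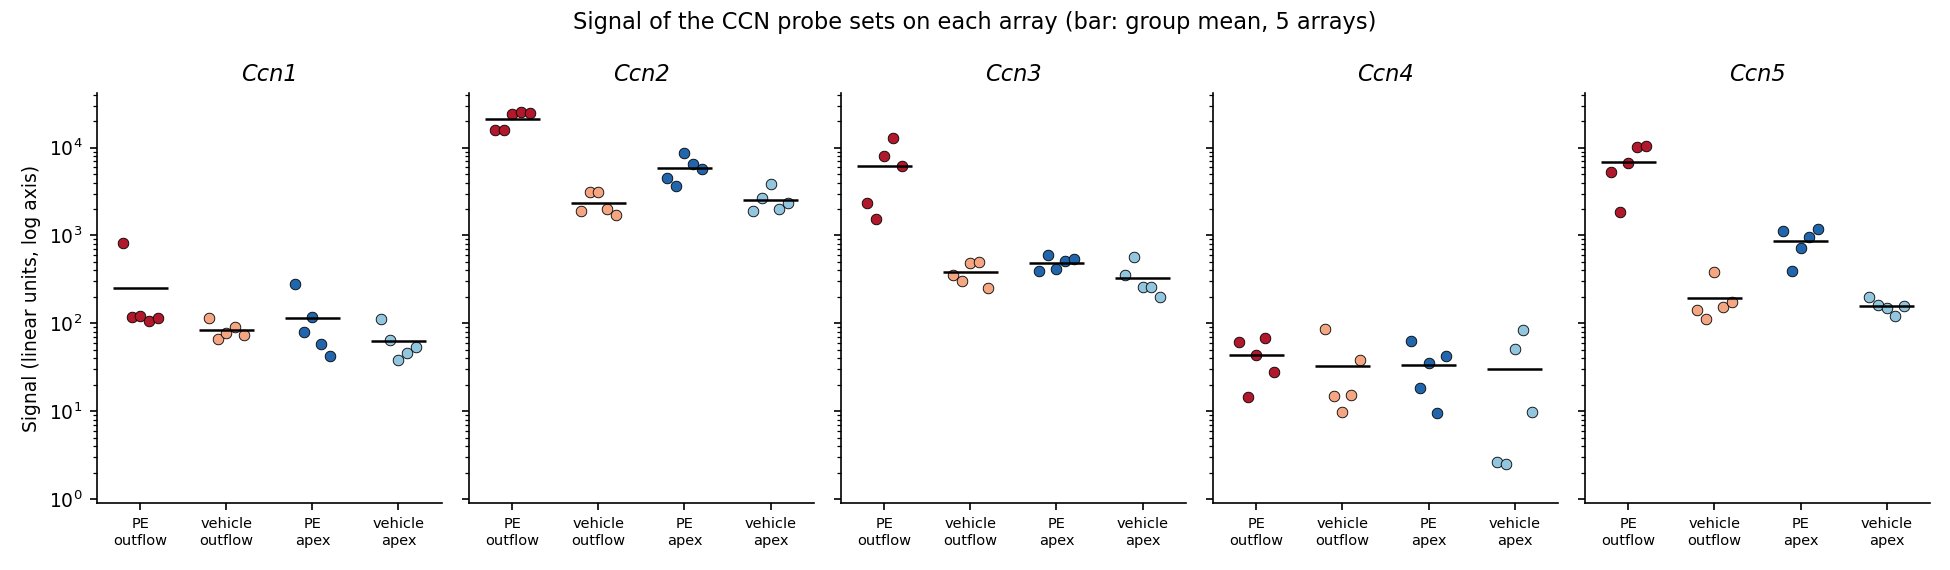
Signal of each CCN probe set (linear units, log axis) on every array, in the order PE outflow tract, vehicle outflow tract, PE apex and vehicle apex, with points for arrays and bars for group means. Ccn2, Ccn3 and Ccn5 stand highest in the PE outflow tract without overlap with any other group, 1 Ccn1 array reaches 815, and Ccn4 does not exceed 86.2 on any array.

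Ccn5 lies on chromosome 3 at chr3:172910670-172922064 (GRCr8). Its signal was 5277, 1849, 6691, 10049 and 10429 on the PE outflow arrays, against 140, 112, 380, 155 and 173 on the vehicle outflow arrays. The groups did not overlap, and the lowest PE array, replicate 2, was also the one with the GAPDH ratio of 6.12. That array stood apart in some cell markers too, though not in all. Its summed fibroblast signal of 174478 lay within the 173944 to 200870 of the other PE outflow arrays. The endothelial and smooth muscle sums of that array lay within the range of the others as well. Its summed cardiomyocyte signal was 430835, against 164135 to 225015 on the other PE outflow arrays, its macrophage signal 8003, against 15655 to 22778, and its chondrocyte and tendon signal 2646, against 5957 to 10373. The part of its tissue content or RNA in the low Ccn5 value was not tested. The mean was 6859 ± 3555 in PE and 192 ± 107 in vehicle rats (SD, n = 5 each), a 30.7-fold difference (log2 4.94 ± 0.40, limma adjusted p = 7.72e-08). The log2 difference was 5.35 without PE outflow replicate 2, and 4.96 without PE outflow replicates 2, 4 and 5.

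Ccn3, at chr7:87983788-87990810, showed the widest spread among the members that rose. On the PE outflow arrays its signal was 2361, 1529, 7958, 13001 and 6246, against 353, 306, 490, 505 and 255 on the vehicle outflow arrays. The groups did not overlap, but the PE arrays differed among themselves by 8.50-fold, against 1.98-fold among vehicle arrays. Means were 6219 ± 4634 in PE and 382 ± 111 in vehicle rats (SD, n = 5 each), a 12.3-fold difference (log2 3.62 ± 0.43, limma adjusted p = 2.95e-06). Without PE outflow replicate 2 the log2 difference was 4.02, and without replicates 2, 4 and 5 it was 3.50. Smooth muscle markers varied over the same arrays: their summed signal was 29408, 35240, 53667, 57001 and 45834 on PE outflow arrays 1 to 5. As for Ccn3, arrays 1 and 2 were the lowest and array 4 the highest. The part of smooth muscle content in the Ccn3 values was not tested.

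Ccn2, at chr1:22621498-22624614, encodes the best known profibrotic member. Its signal was 15841, 15870, 23848, 25326 and 25047 on the PE outflow arrays, against 1900, 3103, 3128, 1998 and 1706 on the vehicle outflow arrays. The PE arrays spanned 1.60-fold, the least of the 3 genes that rose, and none came near the vehicle range. The means of 21186 ± 4898 in PE and 2367 ± 691 in vehicle rats (SD, n = 5 each) differed 8.99-fold (log2 3.17 ± 0.25, limma adjusted p = 6.84e-08). The log2 difference was 3.26 without PE outflow replicate 2 and 3.08 without replicates 2, 4 and 5.

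Ccn1, at chr2:237222730-237225689 and the other textbook TEAD target of the family, had signals of 815, 117, 123, 107 and 114 on the PE outflow arrays, against 114, 66.3, 76.9, 89.6 and 72.8 on the vehicle outflow arrays. Replicate 1 stood far above the rest, and 4 of 5 PE values were above the whole vehicle range. The lowest of these, replicate 5, was above it only narrowly, with 114.1 against 113.7 on vehicle replicate 1. Means were 255 ± 313 in PE and 83.9 ± 18.7 in vehicle rats (SD, n = 5 each). The log2 difference of 0.94 ± 0.47 was not called (limma adjusted p = 0.135), with a 95% interval of -0.035 to 1.92. Without PE outflow replicate 1 it was 0.41 (limma adjusted p = 0.405), and without PE outflow replicates 2, 4 and 5 it was 1.78 (limma adjusted p = 0.0413). The latter fit keeps only replicates 1 and 3 of that group, with Ccn1 signals of 815 and 123. The array numbered 1 had the highest Ccn1 signal in each of the 4 groups.

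The sequences before the Ccn1 and Ccn2 starts are shown because these are the family's known TEAD targets. They are the 250 bases before the RefSeq gene start (GRCr8), read 5' to 3' on the minus strand, at chr2:237225690-237225939 for Ccn1 and chr1:22624615-22624864 for Ccn2. Capitals mark the TEAD core GGAATG or its reverse complement CATTCC.
Ccn1: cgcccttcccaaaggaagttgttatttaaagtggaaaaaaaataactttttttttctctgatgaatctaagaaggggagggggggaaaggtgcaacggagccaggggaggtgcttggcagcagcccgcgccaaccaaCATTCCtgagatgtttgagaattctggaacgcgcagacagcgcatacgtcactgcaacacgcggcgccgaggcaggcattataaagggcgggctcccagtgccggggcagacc
Ccn2: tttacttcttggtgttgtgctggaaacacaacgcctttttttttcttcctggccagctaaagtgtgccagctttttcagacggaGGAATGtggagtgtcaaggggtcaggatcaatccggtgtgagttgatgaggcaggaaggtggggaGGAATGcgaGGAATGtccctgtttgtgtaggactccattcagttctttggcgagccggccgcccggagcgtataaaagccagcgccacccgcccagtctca
In the searched window of 300 bases, which runs 50 bases past the start, the Ccn2 promoter held 3 TEAD cores on the gene's strand, beginning 166, 101 and 92 bases before the start. The Ccn1 promoter held 1, on the opposite strand, from 113 to 108 bases before the start. Of 33465 RefSeq promoters of the same length, 14.2% held at least 1 TEAD core on either strand and 0.0956% held at least 3. Both promoters held 2 SMAD boxes (CAGAC or GTCTG, either strand), and 16.1% of all held at least 2. The AP-1 motif TGANTCA, searched on both strands, was in neither of these windows and in 7.33% of all. Both held TATAAA on the gene's strand, which 8.8% of all held, from 34 bases before the start in Ccn1 and from 31 in Ccn2. The matches share no bases with each other. A match of letters is a description and not a measured binding site. Promoter sequences were available for these 2 members only, and the part of the motifs in their calls was not tested.

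Ccn4, at chr7:100534578-100566287, was dim throughout. Its signal was 61.7, 14.3, 43.5, 68.1 and 28.0 on the PE outflow arrays, against 86.2, 14.9, 9.72, 15.2 and 37.8 on the vehicle outflow arrays. The PE values all lay within the vehicle range. The log2 difference was 0.39 ± 0.48 (limma adjusted p = 0.598), with a 95% interval of -0.62 to 1.40.

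In the apex, Ccn5 and Ccn2 had the largest differences of the family and Ccn3 a small one. There limma called 0 of 5 CCN probe sets, where 0.0129% of all probe sets were called. At an unadjusted p under 0.05 there were 2 of 5, Ccn2 and Ccn5, against 7.47% of all probe sets. Ccn5 stood at rank 4 by log2 difference, Ccn2 at rank 57 and Ccn3 at rank 803.

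Ccn5 signal was 1112, 389, 711, 970 and 1173 on the PE apex arrays, against 200, 160, 149, 120 and 159 on the vehicle apex arrays. The lowest PE array was above the highest vehicle array, as in 1.56% of all probe sets. Means were 871 ± 323 in PE and 158 ± 28.7 in vehicle rats (SD, n = 5 each), and the log2 difference of 2.27 ± 0.40 had a limma adjusted p of 0.0833 and a 95% interval of 1.42 to 3.12. This comparison crossed the threshold when PE outflow replicate 2, an array it does not contain, was left out of the shared estimate of the spread (log2 2.27, limma adjusted p = 0.00582). It also did so without PE apex replicate 2 (log2 2.53, limma adjusted p = 0.0291).

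Ccn2 signal was 4500, 3605, 8679, 6539 and 5692 on the PE apex arrays, against 1921, 2673, 3813, 1992 and 2311 on the vehicle apex arrays. Replicate 2 was the lowest PE array and the only one inside the vehicle range. Means were 5803 ± 1959 in PE and 2542 ± 770 in vehicle rats (SD, n = 5 each), and the log2 difference was 1.17 ± 0.25 (limma adjusted p = 0.149, 95% interval 0.64 to 1.69).

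Ccn3 signal was 395, 598, 413, 505 and 533 on the PE apex arrays, against 350, 571, 262, 256 and 201 on the vehicle apex arrays. The groups overlapped, and 1 of 5 PE arrays exceeded the whole vehicle range. The log2 difference was 0.63 ± 0.43 (limma adjusted p = 0.802), with a 95% interval of -0.28 to 1.53. Ccn1 signal was 277, 79.3, 118, 57.8 and 42.5 on the PE apex arrays, against 112, 65.0, 38.6, 45.9 and 53.3 on the vehicle apex arrays, with a log2 difference of 0.55 ± 0.47 (limma adjusted p = 0.848). That value was 0.19 without PE apex replicate 1 and 0.78 without PE apex replicate 5. The Ccn1 groups overlapped, and 2 of 5 PE values exceeded the vehicle range. Ccn4 signal ranged from 9.45 to 63.4 on PE apex arrays and from 2.50 to 84.0 on vehicle apex arrays, with a log2 difference of 0.37 ± 0.48 (limma adjusted p = 0.915).

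**Figure D2:**
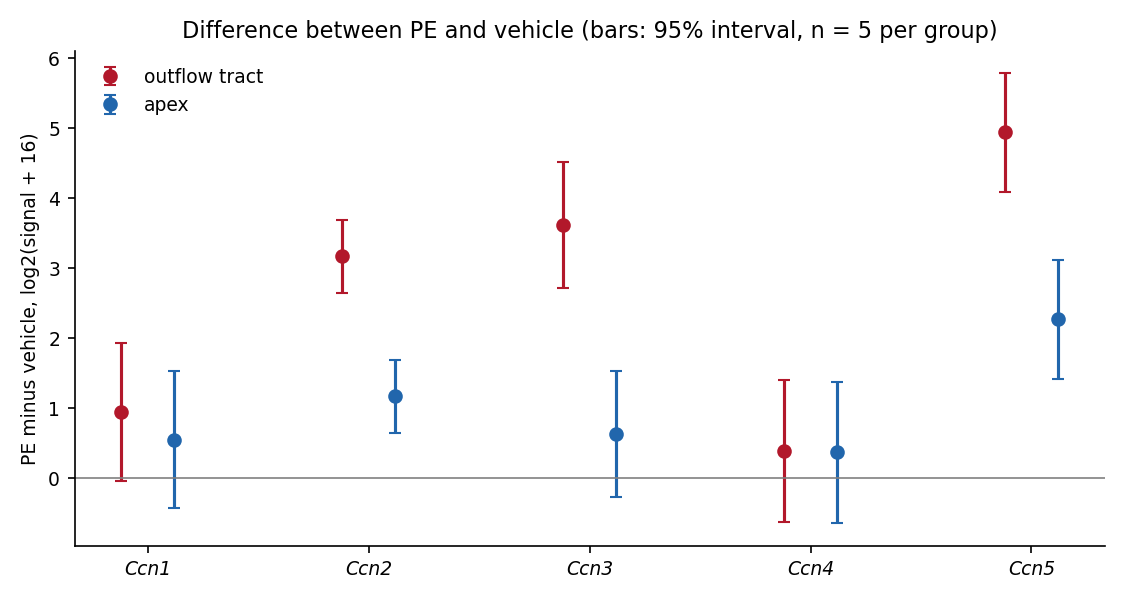
Difference between PE and vehicle on the log2(signal + 16) scale for each CCN gene, with the outflow tract left of the apex, points for the fitted difference and bars for its 95% interval (5 arrays per group). The outflow values of Ccn2 (3.17), Ccn3 (3.62) and Ccn5 (4.94) lie above their apex values, whereas the intervals of Ccn1 and Ccn4 overlap between regions.

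Whether the PE effect differed between regions was tested as the interaction term, outflow minus apex. It was higher in the outflow tract for 3 of 5 CCN probe sets, where 9.84% of all probe sets were called in that direction and 17.9% in either. Ccn3 had the largest difference, 2.99 ± 0.61 on the log2 scale (limma adjusted p = 0.00254). Ccn5 had 2.67 ± 0.57 (limma adjusted p = 0.0035) and Ccn2 had 2.00 ± 0.36 (limma adjusted p = 0.00113). For Ccn1 the difference was 0.40 ± 0.66 (limma adjusted p = 0.752, 95% interval -0.99 to 1.78), and for Ccn4 it was 0.020 ± 0.68 (limma adjusted p = 0.991, 95% interval -1.41 to 1.45). Without PE outflow replicates 2, 4 and 5 the differences were 2.87 for Ccn3, 2.69 for Ccn5 and 1.91 for Ccn2, and limma called all 3.

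Within PE rats, outflow tract and apex were compared directly. Arrays of the same number and treatment deviated together from their group means, with correlations of 0.181 to 0.283 in PE and 0.181 to 0.276 in vehicle rats, and the number was read as the rat. The outflow tract was higher for 3 of 5 CCN probe sets, where 16% of all were called higher and 28.7% in either direction. Ccn3 differed 9.49-fold (log2 3.25 ± 0.43, limma adjusted p = 1.91e-05), Ccn5 7.09-fold (log2 2.83 ± 0.40, limma adjusted p = 3.85e-05) and Ccn2 3.73-fold (log2 1.90 ± 0.25, limma adjusted p = 1.91e-05). For each of these genes every outflow array exceeded every apex array, as in 11.5% of all probe sets. Without PE outflow replicates 2, 4 and 5 the log2 differences were 3.12 for Ccn3, 2.85 for Ccn5 and 1.81 for Ccn2, and limma called all 3.

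Rat by rat, the outflow to apex ratio in PE rats ran from 2.74 to 4.39 for Ccn2, from 4.61 to 10.2 for Ccn5 and from 2.52 to 25.0 for Ccn3, above 1 in 5 of 5 rats for each. PE rat 2 had the smallest ratio for both Ccn3 and Ccn5, and PE rat 4 the largest. For Ccn1 the ratio was 1.03 to 2.83 and again above 1 in 5 of 5 PE rats. Its log2 difference of 0.78 ± 0.47 was not called (limma adjusted p = 0.239), but with the rat as a fixed block it was 0.78 ± 0.21 and was called (limma adjusted p = 0.0154). Without PE outflow replicate 1 the unblocked difference was 0.25 (limma adjusted p = 0.652) and without PE apex replicate 1 it was 1.14 (limma adjusted p = 0.0694). The blocked difference was not called without PE rat 1 (0.60, limma adjusted p = 0.0582) or without PE rat 5 (0.69, limma adjusted p = 0.0637). Ccn4 was higher in the outflow tract of 2 of 5 PE rats (log2 0.26 ± 0.48, limma adjusted p = 0.75).

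In vehicle rats, limma called 0 of 5 CCN probe sets between the regions, and 0 of 5 had an unadjusted p under 0.05, where 0% of all probe sets were called and 3.71% had such a p. Ccn2, with 1900, 3103, 3128, 1998 and 1706 in the outflow tract and 1921, 2673, 3813, 1992 and 2311 in the apex, differed by -0.10 ± 0.25 on the log2 scale (95% interval -0.63 to 0.42). The intervals were -0.65 to 1.16 for Ccn3 and -0.69 to 1.0 for Ccn5. Ccn1 was higher in the outflow tract of 5 of 5 vehicle rats, by 1.02-fold to 1.70-fold (log2 0.39 ± 0.47, limma adjusted p = 1). Ccn2 was higher there in 2 of 5 vehicle rats, Ccn3 in 4, and Ccn4 and Ccn5 in 3 each.

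**Figure D3:**
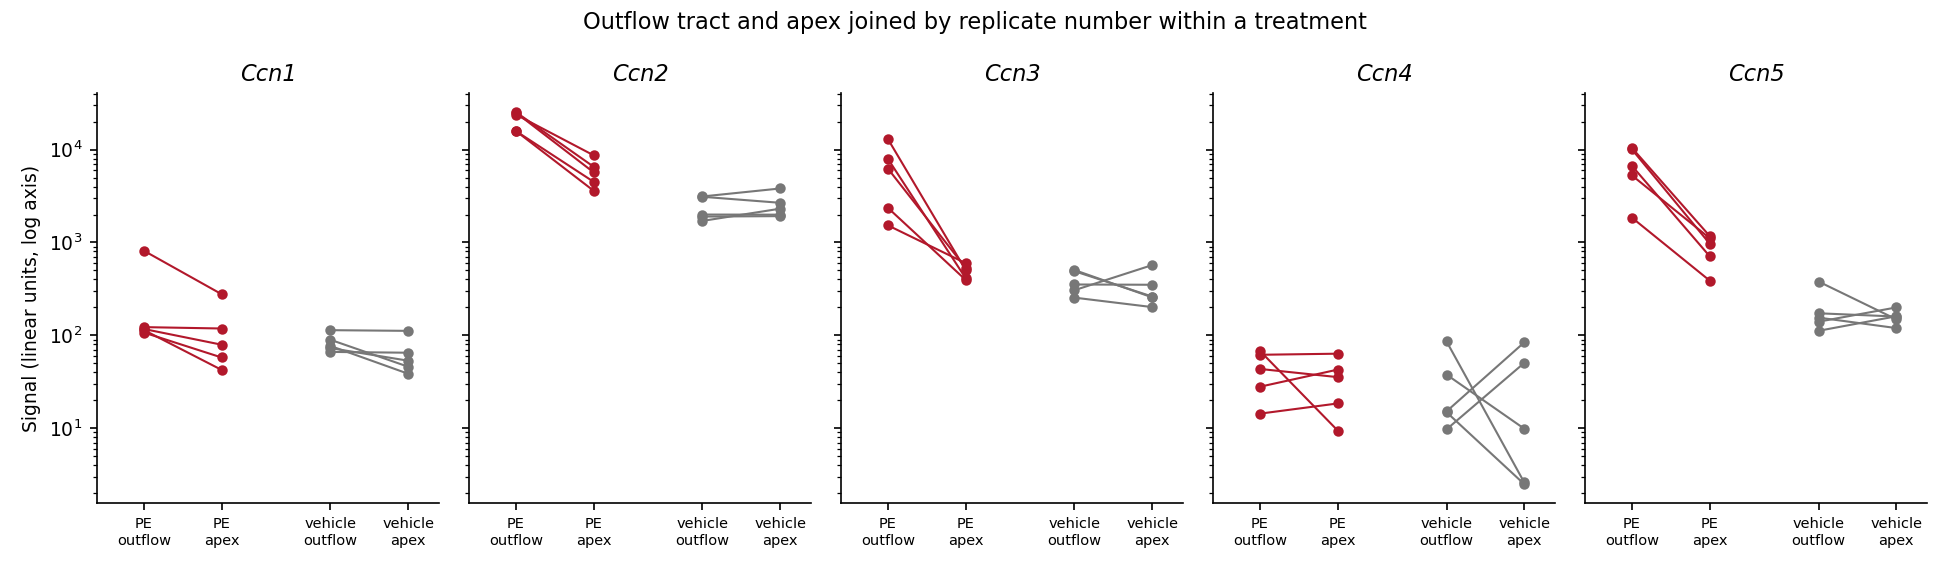
Signal (linear units, log axis) of each CCN probe set in the outflow tract and apex of the same rat, joined by lines, with the 5 PE rats in red left of the 5 vehicle rats in grey. Lines of Ccn2, Ccn3 and Ccn5 fall toward the apex in all PE rats and run nearly level or cross in vehicle rats.

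Markers of several cell types moved with the same comparisons. In the outflow tract 10 of 11 fibroblast markers rose, 0 fell, and their median log2 difference was 1.46. Of all genes, 26.3% were called higher there and 18% lower. Their summed signal was 173944 to 200870 on PE arrays, against 69414 to 101308 on vehicle arrays. In the apex it was 94458 to 120988 on PE arrays, against 84068 to 93493 on vehicle arrays. Fibroblasts are known sources of CCN proteins, and each CCN value was also taken relative to the mean of these markers, an alternative added after the data were seen. In the outflow tract the log2 difference was then 1.77 for Ccn2, 2.22 for Ccn3 and 3.54 for Ccn5, all called by limma, while Ccn1 had -0.46 and Ccn4 -1.02, neither of them called. In that setting 89.7% of all probe sets were called in either direction and 1.26% higher, since subtracting a marker mean that rose lowers every PE difference.

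Of 8 smooth muscle markers, 6 rose and 2 fell in the outflow tract, and the summed signal was 29408 to 57001 on PE arrays, against 25300 to 32362 on vehicle arrays. All 9 macrophage markers rose (8003 to 22778 on PE arrays, against 5760 to 6462 on vehicle arrays). Of 7 measured chondrocyte and tendon markers 6 rose and 1 fell (2646 to 10373, against 1573 to 1825), and of 9 cardiomyocyte markers 8 fell (164135 to 430835, against 346026 to 419069). The cardiomyocyte sums overlapped through replicate 2 alone, as the other 4 PE arrays did not exceed 225015. Of 8 adipocyte markers 6 rose and 1 fell, of 7 lymphocyte markers 3 rose, and of 7 endothelial markers 2 rose and 1 fell. The endothelial shares, 28.6% higher and 14.3% lower, were near those of all genes, 26.3% and 18%. The adipocyte sums overlapped, with 15210 to 25798.5 on PE arrays, against 9473 to 16794 on vehicle arrays. No marker was at 0 in any group, but several were dim. In the vehicle outflow tract the mean signal was under 100 for 5 of 7 lymphocyte and 5 of 7 chondrocyte and tendon markers. It was also under 100 there for 5 of 8 adipocyte markers. Without PE outflow replicates 2, 4 and 5, 1 of 7 lymphocyte markers rose (median log2 difference 0.57, against 0.98 with them), 9 of 9 cardiomyocyte markers fell, and 6 of 8 adipocyte markers rose with 0 falling. The counts of the other 5 marker lists were as given above. Over all genes, 2487 of 14217 were then called higher and 2018 lower.

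In the apex limma called 0 genes of any marker list, but several lists held members with an unadjusted p under 0.05. These were 7 of 11 fibroblast markers (median 0.52), 6 of 9 macrophage markers (median 0.52) and 4 of 8 adipocyte markers. The smooth muscle and the chondrocyte and tendon lists held 2 each and the lymphocyte list 1. Over all genes, 1180 of 14217 had such a p in the apex. The summed macrophage signal was 7297 to 9591 on PE apex arrays, against 4890 to 6339 on vehicle apex arrays, without overlap. The chondrocyte and tendon sum was lower without overlap, 1146 to 1243 on PE apex arrays, against 1401 to 1787 on vehicle apex arrays. The median log2 difference of that list was 0.0081, with members from -0.73 to 0.81. In both apex groups 5 of its 7 markers had a mean signal under 100. The adipocyte sums overlapped, with 12855 to 18419 on PE apex arrays, against 13050 to 21770 on vehicle apex arrays. The fibroblast adjustment above does not measure the part of fibroblast content, since a marker mean can rise through cell number or through RNA per cell. The part of all these shifts in the CCN results of either region was not tested.

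Genes of the pathways around the CCN family also changed in the outflow tract, where 26.3% of 14217 genes were called higher and 18% lower, with a median log2 difference of 0.10 over all genes. Without PE outflow replicates 2, 4 and 5, 2487 genes were called higher and 2018 lower, against 3744 and 2553 with them, and the list counts in that setting, added after the data were seen, are given beside each. In the apex 0.0211% of genes were called, the median was 0.0028, and limma called 0 genes of any of these lists. At an unadjusted p under 0.05 there were 1180 of 14217 genes there, the background for the apex counts of the lists below. Of 15 measured TGF-beta ligands, receptors and Smads, 12 rose in the outflow tract and 0 fell (11 and 0 without those arrays), with a median of 1.12. The ligands Tgfb3 (log2 2.28 ± 0.14, limma adjusted p = 8.89e-09) and Tgfb2 (1.75 ± 0.16, limma adjusted p = 1.83e-07) rose, as did Ltbp2 (4.52 ± 0.41) and Ltbp3 (2.14 ± 0.18), which encode proteins of the latent TGF-beta binding family. In the apex the list's median was 0.29, with 6 of 15 at an unadjusted p under 0.05, led by Ltbp2 at 2.03 ± 0.41 (limma adjusted p = 0.119).

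Of 19 measured TGF-beta and Smad target genes, 18 rose in the outflow tract and 0 fell (17 and 0 without those arrays), with a median of 1.90. Those with the smallest p were Comp, a cartilage and tendon matrix protein (4.78 ± 0.39, limma adjusted p = 7.19e-08), the feedback inhibitor Pmepa1 (2.10 ± 0.17), Ltbp2 and the collagen gene Col1a2 (1.67 ± 0.18). In the apex the median was 0.44, with 8 of 19 at an unadjusted p under 0.05.

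Of 22 measured YAP/TAZ-TEAD targets outside the CCN family, 12 rose in the outflow tract and 0 fell (12 and 1 without those arrays), with a median of 0.70. Myof (1.82 ± 0.15), which encodes the membrane repair protein myoferlin, Tgfb2, Rbms3 (2.13 ± 0.20), which encodes an RNA-binding protein, and Igfbp3 (2.24 ± 0.26), an insulin-like growth factor binding protein, had the smallest p (limma adjusted p from 7.19e-08 to 2.69e-06). The other 10 were not called, and the log2 differences of the list ran from -0.53 for Gadd45a to 2.24 for Igfbp3. In the apex the median was 0.24, with 2 of 22 at an unadjusted p under 0.05. Of 16 measured Hippo core genes and TEAD cofactors, 7 rose and 3 fell in the outflow tract (5 and 3 without those arrays), with a median of 0.25. The TEAD cofactor gene Vgll3 (1.55 ± 0.19) and the kinase genes Lats1 (1.16 ± 0.15) and Stk3 (0.84 ± 0.15) rose, while the scaffold gene Wwc1 fell by 1.14 on the log2 scale (limma adjusted p = 1e-04). The TEAD factor gene Tead1 (-0.63 ± 0.15, limma adjusted p = 0.00273) and Nf2 (-0.40 ± 0.12, limma adjusted p = 0.0116) fell as well. The share of this list that fell, 18.8%, was near the 18% of all genes called lower. In the apex 1 of 16 had an unadjusted p under 0.05, Vgll3 at 0.62 ± 0.19.

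Of 17 measured CCN-binding integrins, receptors and coreceptors, 8 rose in the outflow tract and 0 fell (7 and 0 without those arrays), with a median of 0.37. Itgb3 (1.71 ± 0.16, limma adjusted p = 2.64e-07) and Itgav (0.95 ± 0.14), which encode the subunits of integrin alpha-v beta-3, a receptor bound by several CCN proteins, rose. Fgfr2, a fibroblast growth factor receptor (2.35 ± 0.26), and Lrp1, an endocytic receptor (1.71 ± 0.24), rose as well. In the apex 2 of 17 had an unadjusted p under 0.05, with Itga5 at 0.41 ± 0.13 (limma adjusted p = 0.428).

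Of 22 measured Wnt components and targets, 14 rose in the outflow tract and 0 fell (11 and 0 without those arrays), with a median of 0.66. The secreted Wnt modulators Sfrp2 (4.47 ± 0.47, limma adjusted p = 8.28e-07) and Sfrp1 (1.50 ± 0.18) rose, as did Dkk3 (1.42 ± 0.19), a dickkopf family member, and the receptor gene Fzd2 (1.25 ± 0.18). Ccn4 itself was not called in either region. Of 17 measured SRF and MRTF factors and actin targets, 9 rose and 4 fell in the outflow tract (9 and 3 without those arrays), with a median of 0.99. Flna, an actin crosslinker (1.57 ± 0.17), the myosin light chain gene Myl9 (2.12 ± 0.24), smooth muscle actin, Acta2 (2.34 ± 0.29), and Tagln (2.69 ± 0.38) had the smallest p. In the apex 2 of 22 Wnt genes and 2 of 17 SRF and MRTF genes had an unadjusted p under 0.05. The lists share genes, among them Ltbp2, Tgfb2, Acta2 and Tagln, and so do not count as separate evidence. They also share genes with the marker lists. Col1a1, Col1a2, Col3a1 and Postn are TGF-beta and Smad targets and fibroblast markers, and Comp is such a target and a chondrocyte and tendon marker. Acta2 and Tagln are smooth muscle markers too.

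**Figure D4:**
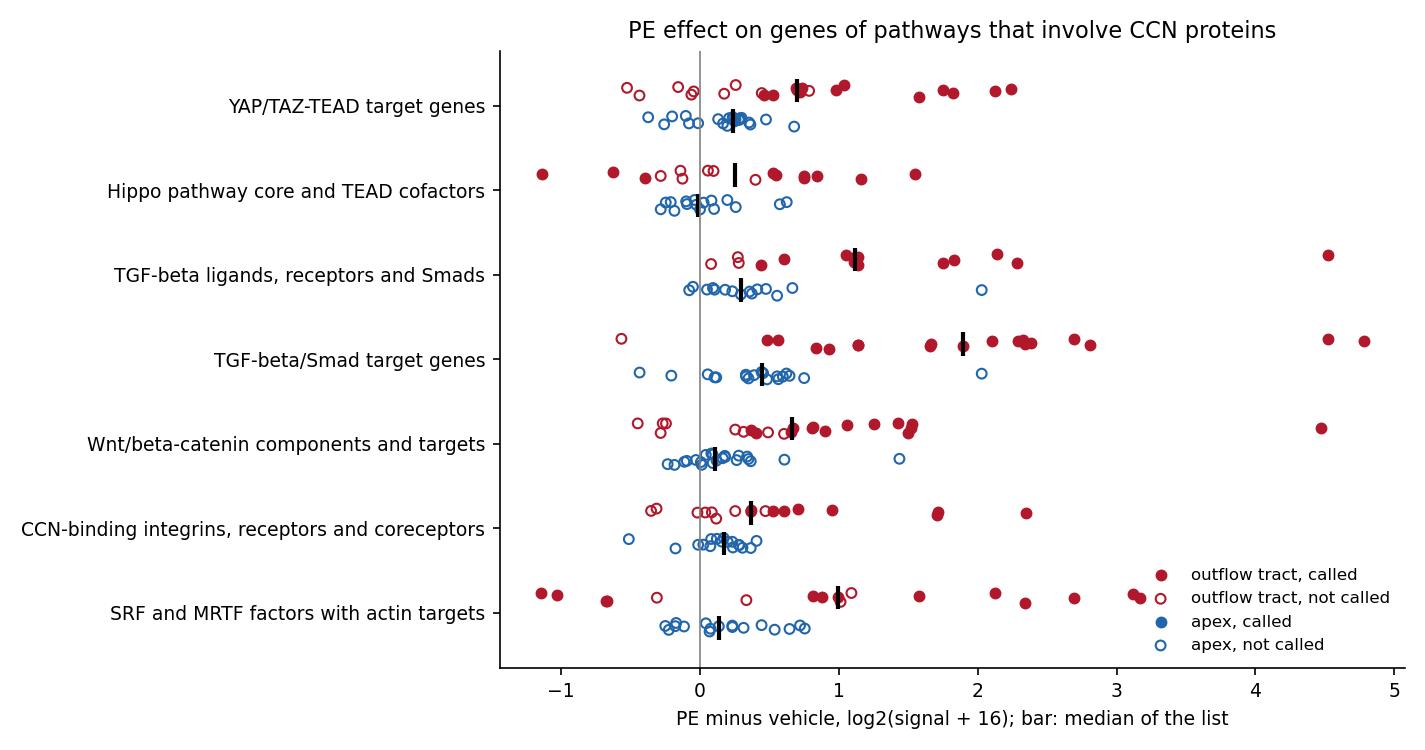
Log2(signal + 16) difference between PE and vehicle for every measured gene of 7 pathway lists, with the outflow tract (red) above the apex (blue), filled points for genes called by limma and bars for list medians. Red points reach 4.78 and list medians of 0.25 to 1.90, while blue points are all open with medians of -0.014 to 0.44.

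Genes whose profile over the 20 arrays was most like that of each member were found by the root mean square difference between standardized log2 profiles, in SD units, among 8126 genes with a mean log2 signal above 8. It is a description, since the arrays share the groups. For Ccn5 the nearest were Mfap5 (0.187), a microfibril protein, Col8a2 (0.196), a short-chain collagen, Fstl1 (0.199), a secreted follistatin-like protein, and Igsf10 (0.200). For Ccn3 they were Mylk (0.174), the myosin light chain kinase, the actin crosslinker Actn1 (0.186), the unconventional myosin Myo1d (0.204) and Pdlim2 (0.221). For Ccn2 they were Tusc3 (0.216), Pmp22 (0.251), Fstl1 (0.252) and Cp (0.253), which encodes ceruloplasmin.

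Mylk, the nearest to Ccn3, averaged 7341 ± 2752 on PE outflow arrays and 1800 ± 129 on vehicle outflow arrays (SD, n = 5 each), with 2209 ± 231 on PE apex and 1868 ± 249 on vehicle apex arrays. Col8a2 averaged 4230 ± 1933 on PE outflow arrays and 187 ± 30.7 on vehicle outflow arrays, with 452 ± 72.9 on PE apex and 173 ± 36.3 on vehicle apex arrays. Among the members, Ccn2 and Ccn5 were the closest pair (0.303), then Ccn3 with Ccn5 (0.423) and Ccn2 with Ccn3 (0.461). Ccn1 and Ccn4 had no near neighbour: their closest genes were Mmp14 (0.668), a membrane metalloproteinase, and Taf11l1 (0.819).

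**Figure D5:**
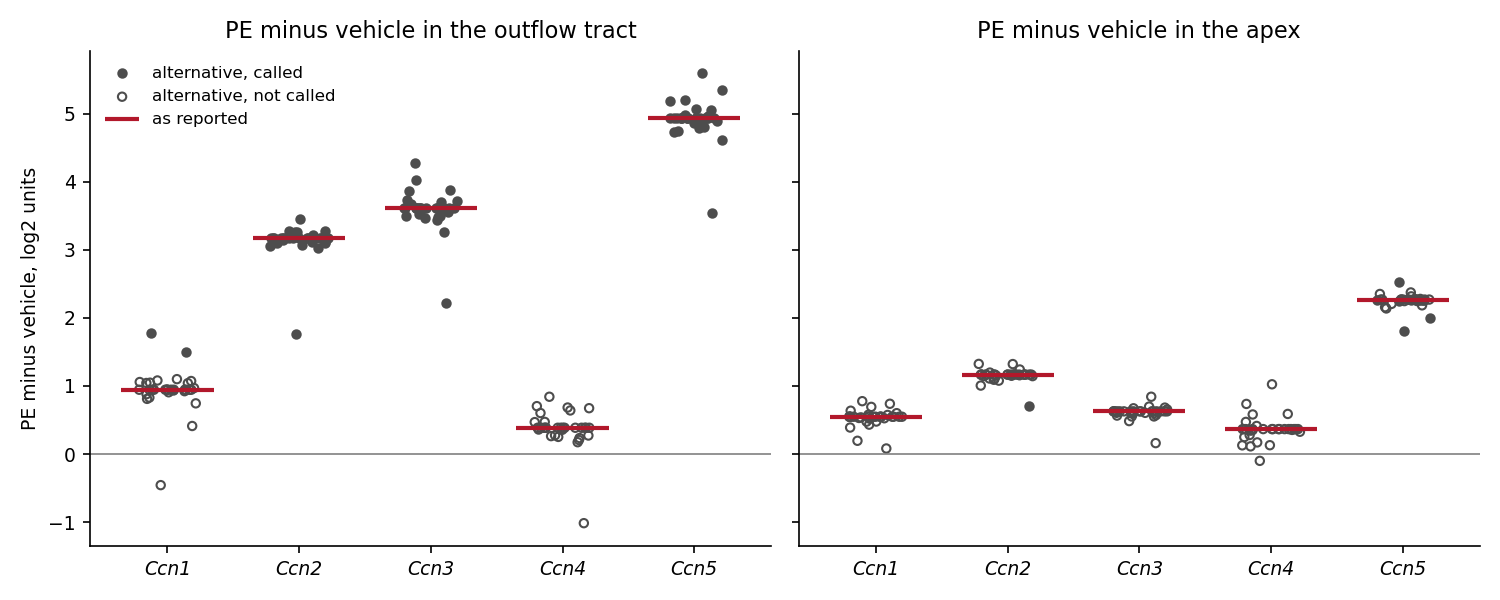
Log2 difference between PE and vehicle for each CCN gene in the outflow tract (left) and the apex (right) under every alternative, with filled points where limma called the difference, open points where it did not and red lines for the reported value. Outflow points of Ccn2, Ccn3 and Ccn5 are all filled and lie from 1.77 to 5.59, and their lowest points are those relative to the fibroblast markers.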

How the data were processed

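RNA of 20 right ventricle samples was hybridised to Affymetrix arrays, 5 per group. The authors deposited 1 linear signal intensity per probe set and array, per the labels. Which software made them is not given in the sources used here. The table held 31099 probe sets, of which 57 controls were left out of the tests. The platform annotation gave 1 symbol for 20826 of the 31042 others, several for 436 and none for 9780; 20758 matched a current rat gene table by Entrez identifier, and for 14217 genes the brightest probe set was kept.

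The value 16 was added before taking log2. Group means over the 20 arrays were estimated with limma (version 3.58.1, R 4.3.3), tested on simulated data first. Two-sided p-values received Benjamini-Hochberg adjustment across 31042 probe sets, with calls under 0.05. Members, gene lists and the naming rule (all CCN probe sets, up to 4 genes with the smallest p per list and PE comparison, and the 4 most similar genes per member) were chosen with earlier results of these data known. Of 4 apex genes per list, those the text omits had no call. Tead1 and Nf2 were named in addition, as the other Hippo list genes that fell in the outflow tract.

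Over the 12310 probe sets whose mean log2 signal exceeded 8, arrays of equal number in the 2 regions of a treatment deviated together (10 of 10 arrays matched their own number best in each treatment), which paired them as rats; numbers did not pair PE with vehicle rats. Alternatives were 20 fits that left out 1 array and 19 other settings, among them fits that left out 1 PE rat. Not every setting applied to every comparison. The number of arrays limits the precision.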

Additional observations from a re-analysis of the deposited data

Results flagged for a closer look

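For Ccn1, PE outflow replicate 1 stood apart, with a signal of 815 against 107 to 123 on the other PE outflow arrays. Its gap to the next array, taken on log2(signal + 16), was 0.938 of the group's range, above the critical value of 0.71 for 5 arrays. Of 20 groups of values examined this way, chance marks about 1 in 20. The same rat also had the highest Ccn1 signal in the PE apex, 277.

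The PE effect differed between outflow tract and apex for Ccn2 by 2.00, for Ccn3 by 2.99 and for Ccn5 by 2.67 on the log2 scale, by limma's interaction term. In all 3 the outflow tract had the larger rise.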

How the results depend on the processing

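The outflow calls of Ccn2 (log2 1.77 to 3.46), Ccn3 (2.22 to 4.28) and Ccn5 (3.54 to 5.59) held under all 33 alternatives, and so did their calls for the regional difference of the PE effect (38 alternatives) and between the regions of PE rats (39). In the apex, 1 of the CCN probe sets, Ccn5, was called without the 40% dimmest probe sets (2.27), adding 64 (2.00), with an intensity trend and robust variances (2.27), with array weights (2.27), with the GAPDH ratio as a covariate (2.25) and without PE outflow replicates 2, 4 and 5 (2.27). Leaving out 1 array gave 0 to 1 calls there and 2.14 to 2.53 for Ccn5, with limma adjusted p from 0.00582 to 0.222. Relative to the fibroblast markers 2 were called in the apex, Ccn2 (0.70) and Ccn5 (1.80), where 6281 of 31042 probe sets were called in either direction. In that setting Ccn4 turned to -0.10 in the apex, Ccn1 to -0.46 and Ccn4 to -1.02 in the outflow tract, Ccn1 to -0.54 and Ccn4 to -0.92 for the regional difference, and Ccn1 to -0.29 and Ccn4 to -0.81 between regions of PE rats. Subtracting a marker mean that itself rose lowers every PE difference by construction. Ccn1 in the outflow tract was called with the replicate number as a fixed block (0.94, limma adjusted p = 0.0226), where the numbers pair no animals, with the GAPDH ratio as a covariate (1.49) and without PE outflow replicates 2, 4 and 5 (1.78). The last of these keeps replicates 1 and 3 of that group, with Ccn1 signals of 815 and 123. The GAPDH ratio was highest on PE outflow replicates 2, 4 and 5, at 6.12, 2.20 and 2.34. The covariate fit and the fit without those arrays are therefore not independent. With the rat as a fixed block Ccn1 was called between the regions of PE rats (0.78), and the block changed no other CCN call. Leaving out 1 PE rat from that fit, an alternative added after the data were seen, Ccn1 was called without rat 2 (0.86), 3 (0.97) or 4 (0.80) and not without rat 1 (0.60) or 5 (0.69). Without rat 4, Ccn4 turned to -0.11 between regions and -0.35 for the regional difference, and 3241 probe sets were called for that difference (3232 without rat 5). The regional difference of Ccn4 turned to -0.092 with each array centred on its median and to -0.38 adding 1, and lay between -0.35 and 0.34 when 1 array was left out. That of Ccn1 then lay between -0.14 and 0.75. Between regions of vehicle rats, leaving out 1 array gave -0.21 to 0.054 for Ccn2, -0.078 to 0.61 for Ccn4 and -0.11 to 0.30 for Ccn5. The dim filter removed Ccn4. The causes of these shifts were not tested.

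Over all probe sets, 4 were called in the apex, against 1 with quantile normalization or the number as a fixed block, 7 with the GAPDH covariate, 15 without dim probe sets, 17 adding 64, 22 without PE outflow replicates 2, 4 and 5, 23 with the trend, 31 with array weights, and 1 to 30 leaving out 1 array (30 without PE outflow replicate 2, 23 without PE apex replicate 2). Without PE outflow replicates 2, 4 and 5, 3646 in place of 5567 were called for the regional difference and 5320 in place of 8924 between regions of PE rats. Relative to the fibroblast markers the counts were 6281 in the apex, 27839 in place of 10720 in the outflow tract, 15881 and 24967. Centring arrays on their medians moved the median of all probe sets in the outflow tract to -0.082, against 0.052 as reported, and gave 4415 higher and 5966 lower calls, against 6083 and 4637. It gave 2046 higher and 3241 lower calls for the regional difference, against 3056 and 2511, and 3707 and 4875 between regions of PE rats, against 4971 and 3953. Signal limits Ccn4, whose values lay near the added 16.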

Other observations

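Ccn6 (formerly Wisp3), which was not followed as a member, had a mean signal of 36.1 ± 30.4 in the PE outflow tract and 15.7 ± 11.6 in the vehicle outflow tract (SD, n = 5 each), and was not called (log2 0.57 ± 0.39, limma adjusted p = 0.303).

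Fos and Egr1, immediate early genes that, like Ccn1, are known to answer serum and stretch within a short time, were highest in the PE groups on other arrays than Ccn1. Fos had 820, 587, 2034, 1675 and 565 on the PE outflow arrays, against 1199, 308, 903, 136 and 536 on the vehicle outflow arrays. Its highest PE values were on replicates 3 and 4. Egr1 had 1896, 1801, 3887, 4047 and 2161 on the PE outflow arrays, against 1655, 1210, 1839, 603 and 1150 on the vehicle outflow arrays, again with replicates 3 and 4 highest. In the PE apex both genes were highest on replicate 3, with 1291 for Fos and 4515 for Egr1. In the vehicle rats Fos, like Ccn1, was highest on replicate 1 in both the outflow tract (1199) and the apex (903), while Egr1 was highest on replicate 3 in both (1839 and 1702).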
